A study of Mus musculus with 3 samples.

Results

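Oxidative phosphorylation (OXPHOS) genes encode the protein complexes of the inner mitochondrial membrane that pass electrons to oxygen and use the resulting proton gradient to make ATP. They were described here in primary mouse hepatocytes. Members were the nuclear genes whose symbols begin with Ndufa, Ndufb, Ndufc, Ndufs, Ndufv, Sdh, Uqcr, Cox4 to Cox8 or Atp5, together with the 13 protein-coding genes of the mitochondrial genome. The prefixes matched 98 nuclear symbols, of which 91 reached 20 counts when the libraries were added up. These 91 and the 13 mitochondrial genes made 104 measured members among the 32285 features of the count matrices, and 10833 nuclear-encoded genes in all passed the same minimum.

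The hepatocytes came from wild-type mice, by collagenase perfusion, after 12 weeks on 1 of 3 diets. The ND library was from animals on a normal diet. The HFD library was from animals on a 60% high fat diet. The HFD_HDCA library was from animals on the same high fat diet supplemented with hyodeoxycholic acid (HDCA, a bile acid) at 0.25%. Each diet had 1 library, so the differences below have no replicate check. No p-values are given, and intervals are 95% intervals of counting error alone. The number of mice behind a library is not given in the sources used here. Diet, animal and preparation therefore cannot be told apart.

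Complex I (NADH dehydrogenase) and complex II (succinate dehydrogenase) feed electrons to ubiquinone, complex III passes them to cytochrome c, complex IV passes them to oxygen, and complex V is the ATP synthase. Complex II is wholly nuclear-encoded, while the other complexes join nuclear subunits with subunits made inside the mitochondrion. The nuclear mRNAs are transcribed gene by gene, and the mitochondrial mRNAs are cut from long transcripts that span the circular genome. Hepatocytes are rich in mitochondria.

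The libraries were made with a 3′ kit that captures polyadenylated RNA and tags each molecule with a unique molecular identifier, so a count stands for 1 molecule and was not divided by transcript length. Barcodes were kept if they had 200 genes or more and a mitochondrial share of no more than 50%, which left 2776 ND, 2898 HFD and 3000 HFD_HDCA barcodes with 4956892, 4323108 and 6515814 counts. Their median depths were 944.5, 868 and 1116.5 counts. The HFD library kept 558 barcodes under 500 counts, and the other libraries kept 0 such barcodes. All 10 hepatocyte markers were detected in every library and took 108974, 97775 and 113848 counts per 1000000 nuclear-encoded counts (CPM) in ND, HFD and HFD_HDCA, the order in which sets of 3 values are given throughout. Endothelial markers (9 of 9 detected) took 386.9, 134.7 and 150.5 CPM. Of these, Dpp4, which the rule below does not use, took 90.3, 85.4 and 83.0 CPM. The other endothelial markers therefore differed more between ND and the other libraries than the sum does. Erythroid markers were at 0 in ND, where a count of 0 allows up to 0.702 CPM, at 342.5 CPM in HFD and at 26.2 CPM in HFD_HDCA. The part of the erythroid counts in the differences below was not tested. The value without the 115, 42 and 59 barcodes that held at least 3 counts of other cell types' markers stands beside the first result. That rule used 35 genes of endothelial, Kupffer, stellate, cholangiocyte, lymphocyte and neutrophil cells and no erythroid gene, so erythroid counts were not removed by it. Pairs of libraries shared 5, 1 and 1 kept barcode sequences.

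The promoters of several members carry the recognition letters of the transcription factor NRF1, a regulator of nuclear respiratory genes, and are shown because the transcript of that factor differed between the libraries. A table of RefSeq promoters on GRCm38.p6 (250 bases before to 50 after each start) matched 76 of the 91 nuclear members. Of these, 13 (17.1%) held the NRF1 core GCATGCG on either strand, against 4.01% of the 27025 genes in the table. Those genes were not limited to measured ones, and the shares among measured genes were not computed for any core. The ETS core CCGGAAG, which GABPA recognises, stood in 22 members (28.9%) against 9.93% of all genes, the YY1 core AAGATGG in 11 (14.5%) against 7.28%, and the oestrogen-related receptor core AAGGTCA in 8 (10.5%) against 5.38%. The stretches below belong to the 4 members with the most counts among those with an NRF1 core that ends before the start, written 5′ to 3′ on the gene's strand with matches to any of the 4 cores on either strand in capitals. All 4 genes lie on the minus strand. Atp5l, Atp5k and Atp5j encode ATP synthase subunits and Ndufa6 a subunit of complex I. They span chr9:44920933-44920992, chr5:108434415-108434474, chr16:84835090-84835149 and chr15:82354341-82354400, with the match beginning 241, 49, 147 and 83 bases before the start.
Atp5l: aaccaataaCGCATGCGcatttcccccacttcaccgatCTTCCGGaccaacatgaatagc
Atp5k: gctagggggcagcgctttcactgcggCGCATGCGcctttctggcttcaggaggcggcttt
Atp5j: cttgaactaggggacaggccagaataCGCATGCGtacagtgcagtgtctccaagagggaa
Ndufa6: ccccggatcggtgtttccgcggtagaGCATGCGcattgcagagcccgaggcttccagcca
In Atp5l, Atp5k and Atp5j the letters read as a match on both strands, which overlap by all but the outer base, and the Atp5l stretch also holds the ETS core in reverse. A match is a description of letters and not evidence that a factor binds there.

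The mitochondrial members all lie on chrM, and their order and overlaps bear on the composition results further on. On the strand that carries 12 of the 13 genes the order is mt-Nd1, mt-Nd2, mt-Co1, mt-Co2, mt-Atp8, mt-Atp6, mt-Co3, mt-Nd3, mt-Nd4l, mt-Nd4, mt-Nd5 and mt-Cytb, and mt-Nd6 lies on the other strand. The joins of the 2 pairs that overlap as coding sequence and share an mRNA are shown from GENCODE release M21 (GRCm38), with the bases common to both genes in capitals. The mt-Atp8 and mt-Atp6 join (chrM:7910-7969) has 43 shared bases and the mt-Nd4l and mt-Nd4 join (chrM:10144-10173) has 7.
mt-Atp8 and mt-Atp6: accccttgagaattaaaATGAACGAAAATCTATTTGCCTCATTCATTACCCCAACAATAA
mt-Nd4l and mt-Nd4: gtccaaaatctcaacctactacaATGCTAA
The last 30 bases of 2 mRNAs whose shares differed in opposite directions are shown too, mt-Nd1 (chrM:3678-3707) and mt-Cytb (chrM:15259-15288). Capitals mark the annotated stop codon of mt-Nd1 and the single T with which the annotated mt-Cytb ends. Mitochondrial mRNAs of the latter kind gain their stop codon when the poly(A) tail is added.
mt-Nd1: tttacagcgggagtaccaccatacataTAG
mt-Cytb: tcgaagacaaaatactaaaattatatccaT

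The nuclear members differed widely in abundance, and that order was nearly the same in every library. Cox6c, a complex IV subunit encoded at chr15:35925886-35938246, was the most abundant in each, at 2034, 1750 and 1818 CPM in ND, HFD and HFD_HDCA. Ndufaf5, which helps assemble complex I, was the least abundant measured member, at 3.51, 4.28 and 4.49 CPM. The median member stood at 287.3, 224.9 and 268.2 CPM. The 10 most abundant took 34.1%, 35.1% and 34.6% of the members' counts, and in each library the first 4 were Cox6c, Ndufa4, Uqcrq and Cox7c. Ndufa4, named for complex I and since placed with complex IV, had 1919, 1592 and 1717 CPM in ND, HFD and HFD_HDCA. It is counted with complex I by its symbol in what follows. Uqcrq, a small complex III subunit, had 1697, 1494 and 1564 CPM. Across the 91 members, Pearson's r of log2 CPM between HFD and ND was 0.99, a description over genes of 2 libraries and not a test.

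**Figure D1:**
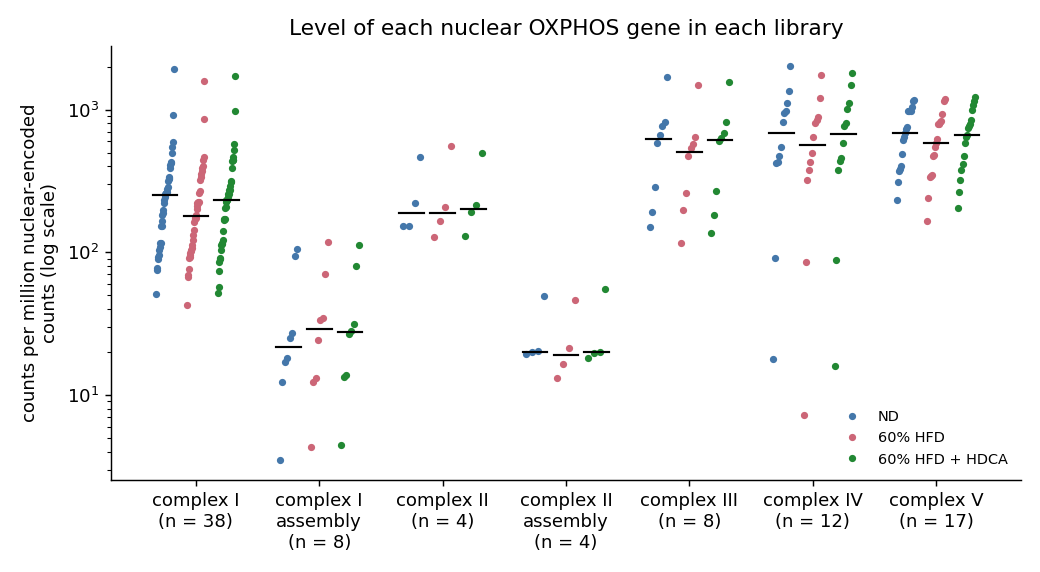
Level of each of the 91 nuclear genes (points) in CPM, on a log scale, grouped by complex, with a black line at the median of each group and colours for the 3 libraries. The medians of the assembly factors lie below those of the structural subunits, and the lowest complex IV gene in each library is Cox7a1.

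Levels followed role in the complexes. The 17 complex V members summed to 11923, 10646 and 11561 CPM in ND, HFD and HFD_HDCA. The 38 complex I subunits summed to 11708, 9698 and 11179 CPM, the 12 complex IV members to 9215, 7854 and 8947 CPM, and the 8 complex III members to 5162, 4296 and 4892 CPM. With Ndufa4 moved, complex I summed to 9789, 8106 and 9462 CPM and complex IV to 11134, 9445 and 10664 CPM, and their log2 ratios of HFD to ND were -0.27 and -0.24. The 4 subunits of complex II summed to 991.4, 1061 and 1029 CPM, which made complex II the only complex whose HFD sum was above its ND sum. Sdha was the largest part of these sums. The 8 complex I assembly factors (Ndufaf genes) summed to 303.4, 310.3 and 310.9 CPM and the 4 complex II assembly factors (Sdhaf genes) to 109.2, 97.5 and 113.0 CPM.

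The first comparison, of the HFD with the ND library, asked how a high fat diet relates to these transcripts. The nuclear members together took 39412 CPM (39224 to 39600) in ND and 33961 CPM (33775 to 34149) in HFD, a level 13.8% lower (log2 ratio -0.21, -0.23 to -0.20). Without the barcodes that held other cell types' markers the log2 ratio was -0.23. Of the 91 members, 76 had a log2 ratio below 0, against a background of 60.3% of all 10833 measured genes. The median member stood at -0.24 and the median of all measured genes at -0.12. Among the 1955 genes with at least 1000 counts the median was 0.04, and among the 78 members with as many it was -0.24. The counting interval lay wholly below 0 for 62 members, wholly above 0 for 3, and included 0 for 26. Such counts were not made over all measured genes. Intervals are narrower for genes with many counts, as most members have. Fewer transcripts per cell and fewer cells of a kind cannot be told apart in such sums.

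The size of the difference was small for each gene. At least 2-fold differences were found for 1 of 91 members, against a background of 12.7% of all measured genes. Most members have many counts, and the 2-fold share among genes with as many was not computed in any comparison. The quartiles of the log2 ratio were -0.45 and 0.19 over all measured genes. Over those with at least 1000 counts they were -0.21 and 0.29. The member past 2-fold was Cox7a1 (chr7:30184144-30186078), the complex IV isoform typical of heart and skeletal muscle. It had 76 counts in ND, 27 in HFD and 92 in HFD_HDCA, or 17.8, 7.23 and 15.9 CPM, so that the HFD library was the low one. The log2 ratio of HFD to ND was -1.28 (-1.99 to -0.65). These counts came from 70, 27 and 88 barcodes with at most 2 in any of them, and 0 of them fell in the barcodes with other cell types' markers. With barcodes thinned to 500 counts, which left out the 558 HFD barcodes under 500 counts, the ratio was -1.12, with an interval of -2.67 to 0.14.

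Complex I subunits lay mostly on the low side in HFD. Of its 38 subunits, 35 had a log2 ratio below 0, and the sum stood at -0.27 (-0.29 to -0.25). Among the lowest were accessory subunits, which surround the catalytic core. Ndufb2 (chr6:39592574-39603382) had 258.3, 171.1 and 223.6 CPM in ND, HFD and HFD_HDCA, with a log2 ratio of HFD to ND of -0.59 (-0.74 to -0.45). Ndufa5 had 261.1, 174.3 and 234.2 CPM (log2 ratio -0.58, -0.72 to -0.44). Ndufa11 had 166.3, 112.7 and 142.0 CPM, a log2 ratio of -0.56, Ndufb4 329.9, 223.6 and 292.8 CPM, also -0.56, and Ndufb7 190.0, 132.3 and 169.8 CPM, a ratio of -0.52. In all of them HFD was the lowest library and HFD_HDCA lay between the others.

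The catalytic core of complex I, which binds NADH, holds the iron-sulphur clusters and hands electrons to ubiquinone, did not differ evenly. Ndufs7, an iron-sulphur subunit, had 152.5, 102.8 and 121.8 CPM in ND, HFD and HFD_HDCA (log2 ratio of HFD to ND -0.57, -0.75 to -0.38). Ndufv1, which carries the NADH site, had 90.3, 76.0 and 89.9 CPM (-0.25, -0.47 to -0.02). For Ndufs8, Ndufv2, Ndufs3 and Ndufs1 the interval included 0, with log2 ratios of -0.20, -0.12, -0.08 and 0.06. The intervals of Ndufs8 (-0.45 to 0.04), Ndufv2 (-0.36 to 0.12) and Ndufs3 (-0.29 to 0.13) also included the median member's -0.24. Those genes are therefore not shown to differ from the median member. The interval of Ndufs1 (-0.15 to 0.27) lay above it. With barcodes of up to 20% mitochondrial counts, Ndufs8 stood at -0.28 (-0.54 to -0.02), Ndufv2 at -0.22, Ndufs3 at -0.19 and Ndufs1 at 0.13. Ndufs1, the largest core subunit, had 92.6, 96.4 and 85.1 CPM.

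Assembly factors of complex I did not share the direction of its subunits. Of the 8, 2 were below 0, and their sum had a log2 ratio of 0.03 (-0.08 to 0.15). Ndufaf1 (chr2:119655446-119662827), a chaperone of the membrane arm, had 25.3, 34.5 and 26.6 CPM in ND, HFD and HFD_HDCA (log2 ratio 0.45, 0.07 to 0.83). Ndufaf6 had 18.2, 24.4 and 28.3 CPM (0.42, -0.04 to 0.87) and Ndufaf2 27.1, 33.7 and 31.6 CPM (0.31, -0.06 to 0.69), both with intervals that included 0. Ndufaf4, the most abundant, had 106.0, 117.5 and 113.2 CPM. Ndufaf8 went the other way at 93.8, 70.4 and 79.5 CPM (-0.41, -0.64 to -0.19). All but Ndufaf4 and Ndufaf8 rested on at most 183 counts in any library.

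Complex II was the exception among the complexes by its sum. Its sum had a log2 ratio of 0.10 (0.03 to 0.16) between HFD and ND, with 2 of 4 subunits below 0. Sdha (chr13:74322254-74350280), the flavoprotein that oxidises succinate, had 463.7, 557.5 and 494.9 CPM in ND, HFD and HFD_HDCA, and HFD was its highest library (log2 ratio 0.27, 0.18 to 0.36). Sdhb, the iron-sulphur partner of Sdha, had 153.0, 128.5 and 129.2 CPM, a log2 ratio of -0.25 (-0.42 to -0.08). The membrane anchors differed from each other as well. Sdhc had 221.3, 208.8 and 191.7 CPM and Sdhd (chr9:50596357-50603812) 153.5, 165.7 and 213.5 CPM. Subunits of the same small complex were thus on both sides of 0, and no test compared complex II with the others. Sdha was the largest part of the sum in each library, and the sum without Sdha was not computed.

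Complexes III, IV and V were lower in HFD by their sums, at log2 ratios of -0.26 (-0.29 to -0.24), -0.23 (-0.25 to -0.21) and -0.16 (-0.18 to -0.14). In complex III 7 of 8 members were below 0. Its core proteins were split, with Uqcrc1 at 151.6, 115.9 and 137.4 CPM in ND, HFD and HFD_HDCA (log2 ratio -0.39, -0.57 to -0.21) and its partner Uqcrc2 at 192.5, 197.6 and 183.9 CPM (0.04, -0.11 to 0.18). The Rieske iron-sulphur protein Uqcrfs1 had 287.3, 258.7 and 268.2 CPM (-0.15, -0.27 to -0.03). In complex IV all 12 measured members were below 0. Cox4i1, a large regulatory subunit, had 814.3, 638.6 and 811.9 CPM (-0.35, -0.43 to -0.28), and the ND and HFD_HDCA values of this gene nearly coincided.

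The ATP synthase was lower in HFD in 15 of 17 members. Atp5b, the catalytic beta subunit, had 980.9, 821.5 and 787.5 CPM in ND, HFD and HFD_HDCA (log2 ratio of HFD to ND -0.26, -0.32 to -0.19), and its lowest library was HFD_HDCA. Atp5c1, the central stalk, had 370.6, 350.0 and 323.5 CPM (-0.08, -0.19 to 0.02). The 3 genes for the identical c-ring subunit differed from each other. Atp5g1 had 726.4, 548.6 and 742.3 CPM (-0.40, -0.49 to -0.32), Atp5g2 385.5, 337.6 and 379.5 CPM (-0.19, -0.30 to -0.08), and Atp5g3 1153, 1187 and 1159 CPM (0.04, -0.02 to 0.10). The most abundant c-ring gene was therefore nearly level across the libraries while Atp5g1 was low in HFD.

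**Figure D2:**
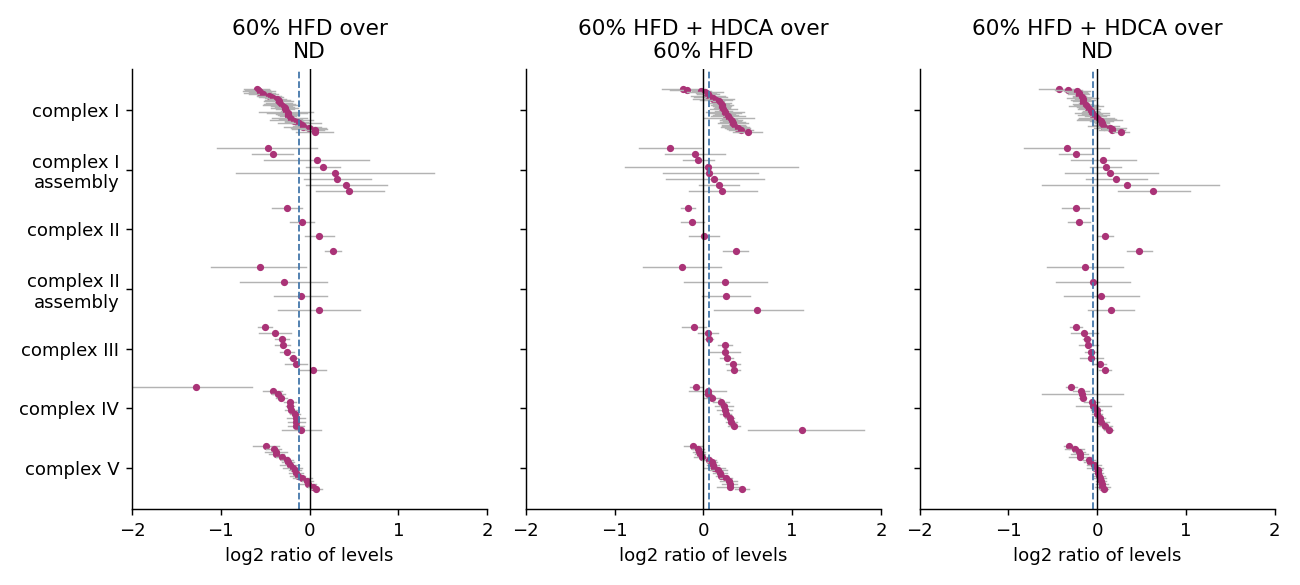
Log2 ratio of levels for each of the 91 nuclear members (points) with its 95% counting interval (grey bars), by complex, in the 3 comparisons. The solid line is 0 and the dashed line is the median of all measured genes. Most points lie left of 0 for HFD over ND and right of 0 for HFD_HDCA over HFD, and the point beyond 1 on each of those panels is Cox7a1.

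The second comparison, of HFD_HDCA with HFD, addressed the addition of HDCA to the high fat diet. It shares the HFD library with the first comparison, so a library-wide property of HFD would enter both with opposite sign. The nuclear members took 38033 CPM (37874 to 38192) in HFD_HDCA, 12.0% above HFD (log2 ratio 0.16, 0.15 to 0.17). Of the 91 members, 16 had a log2 ratio below 0, against a background of 42.8% of measured genes, with a median of 0.21 against 0.06 for all genes. Intervals lay above 0 for 57 members, below 0 for 4 and included 0 for 30, again without such a count over all measured genes. At least 2-fold differences were again found for 1 member, Cox7a1 (log2 ratio 1.12, 0.50 to 1.81), against a background of 7.65%. With barcodes thinned to 500 counts its ratio was 1.09, with an interval of -0.13 to 2.63, and with equal weight per barcode it no longer passed 2-fold.

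Several complex I members were on the high side of this comparison. Ndufb8, an accessory subunit of the membrane arm, had a log2 ratio of 0.50 (0.34 to 0.66), with 153.7, 121.8 and 172.4 CPM in ND, HFD and HFD_HDCA. Ndufa5 stood at 0.43, Ndufb4 at 0.39 and Ndufb2 at 0.39. Atp5g1 had a ratio of 0.44 (0.36 to 0.51) and Sdhd of 0.36 (0.22 to 0.51). Sdhaf1, an assembly factor that helps insert iron-sulphur clusters, stood at 0.60 (0.12 to 1.12) on 83, 49 and 116 counts. By sum the log2 ratios were 0.21 (0.19 to 0.22) for complex I, 0.19 for complex III, 0.19 for complex IV, 0.12 for complex V and -0.04 (-0.10 to 0.02) for complex II.

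A few members were lower in HFD_HDCA than in HFD. Ndufaf1 had a log2 ratio of -0.38 (-0.73 to -0.03), Sdha of -0.17 (-0.25 to -0.09), Atp5c1 of -0.11 (-0.22 to -0.01) and Cox7b, a small complex IV subunit, of -0.08 (-0.15 to -0.01). For Ndufs8 (-0.23), Sdhaf2 (-0.24), Ndufs1 (-0.18) and Sdhc (-0.12) the interval included 0. HFD was the lowest of the 3 libraries for 69 members, or 75.8%, and for 42.4% of all measured genes. It was the highest for 9 members, among them Sdha, Ndufs1, Uqcrc2, Ndufaf1 and Atp5g3. The share of all measured genes that were highest in HFD was not computed.

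Set directly against ND, the HFD_HDCA library differed less. The sum had a log2 ratio of -0.05 (-0.06 to -0.04), or 3.50% lower, and 56 of 91 members were below 0, against a background of 54.1%. Intervals lay below 0 for 30 members, above 0 for 11 and included 0 for 50, with no such count over all measured genes. The direction of the sum depended on how barcodes were weighted: it was 0.030 with equal weight per barcode, with 43 of 91 members below 0, and 0.027 with barcodes thinned to 500 counts, with 44 below 0. No member, 0 of 91, differed 2-fold or more, against a background of 10.5%. The highest ratio among members with at least 100 CPM in a library was that of Sdhd, at 0.48 (0.34 to 0.61), and Ndufa2, an accessory complex I subunit with 387.9, 403.5 and 468.0 CPM, stood at 0.27 (0.18 to 0.36). Ndufaf6 was higher still at 0.63 (0.24 to 1.04) on 78 counts in ND and 164 in HFD_HDCA. The lowest with at least 20 CPM in a library were Ndufs8 at -0.43 (-0.65 to -0.21), Ndufs7 at -0.32 (-0.48 to -0.17), Atp5b at -0.32 (-0.38 to -0.26) and Cox7b at -0.29 (-0.35 to -0.23). These genes stayed below ND in the library with HDCA, by their own values.

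Tissue-restricted isoforms marked the liver pattern. Complex IV uses paired genes for several subunits, and the copy typical of liver was abundant in each library where the copy known from muscle, lung or testis was rare. Cox4i1 had 3481, 2385 and 4705 counts in ND, HFD and HFD_HDCA, and its lung-enriched partner Cox4i2 had 0 in each. Cox8b, Cox8c and the testis gene Cox7b2 also had 0 counts in every library, which allows up to 0.702, 0.803 and 0.518 CPM. Cox6a2, a heart and muscle isoform, had 0, 0 and 3 counts beside 1804, 1419 and 2529 for Cox6a1. Cox6b2 had 7, 3 and 4 counts beside 2340, 1842 and 3378 for Cox6b1, and Ndufa4l2, known for its induction under low oxygen, had 7, 3 and 1 beside 8202, 5945 and 9950 for Ndufa4. These 7 genes were below the count minimum and are the unmeasured members.

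The mitochondrial members were far more abundant, and their sum differed from the nuclear sum in size and, between HFD_HDCA and HFD, in direction. At the 50% limit its log2 ratios were -0.02 for HFD to ND, -0.30 for HFD_HDCA to HFD and -0.32 for HFD_HDCA to ND. The nuclear sum stood at -0.21, 0.16 and -0.05. The 13 genes took 13.8% of all counts in ND, 13.6% in HFD and 11.1% in HFD_HDCA with barcodes of up to 50% mitochondrial counts, and 11.2%, 10.6% and 9.43% with barcodes of up to 20%. With no limit on that share they took 20.8%, 17.1% and 16.8%. For each nuclear OXPHOS count there were 4.05 mitochondrial counts in ND, 4.64 in HFD and 3.27 in HFD_HDCA at the first limit and 3.11, 3.41 and 2.70 at the second. HFD was the highest library and HFD_HDCA the lowest at both limits. The log2 ratio of these quotients was 0.20 (0.19 to 0.20) for HFD to ND, -0.50 (-0.51 to -0.50) for HFD_HDCA to HFD and -0.31 (-0.31 to -0.30) for HFD_HDCA to ND, and at the 20% limit 0.13, -0.34 and -0.21.

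The position of HFD against ND depended on the limit itself. With no limit the quotients were 6.76 in ND, 6.11 in HFD and 5.36 in HFD_HDCA, and the log2 ratio of HFD to ND became -0.15 (-0.15 to -0.14). With no limit on share or genes, the median barcode held 61.1% mitochondrial counts in ND, 63.1% in HFD and 14.5% in HFD_HDCA. Nuclear sums differed little between limits, at 40443, 34608 and 38619 CPM in ND, HFD and HFD_HDCA for the 20% limit. The barcodes over 50%, which the limits leave out, numbered 454, 200 and 502 among those with enough genes.

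**Figure D3:**
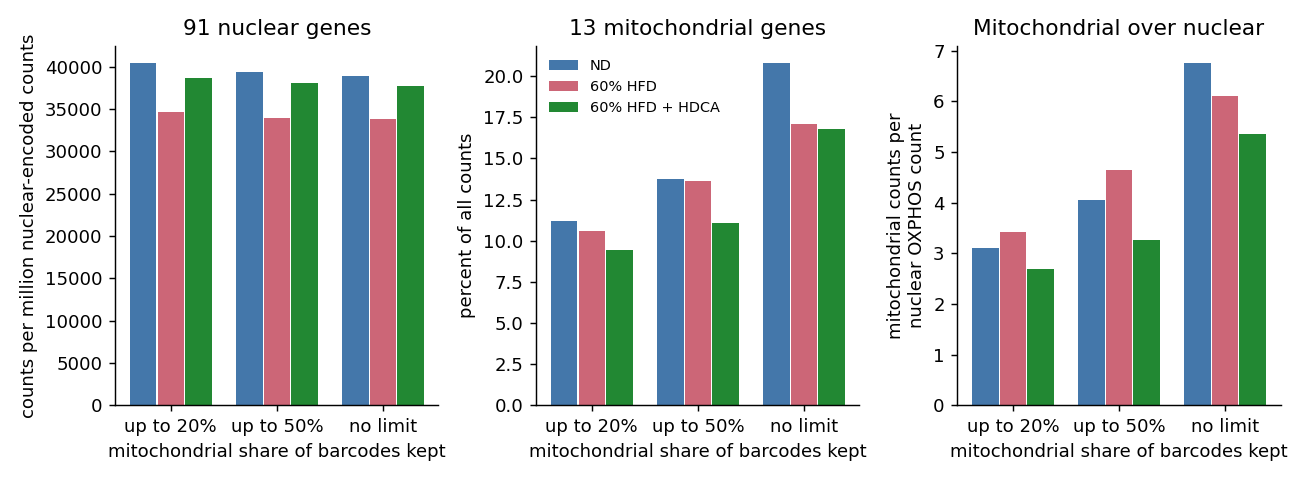
Summed level of the 91 nuclear genes, percent of all counts from the 13 mitochondrial genes, and mitochondrial counts per nuclear OXPHOS count (bars from 0), in the 3 libraries at 3 limits on a barcode's mitochondrial share. HFD is the lowest nuclear sum at each limit, while its mitochondrial to nuclear quotient is above ND at up to 20% (3.41 against 3.11) and 50% (4.64 against 4.05) and below it with no limit (6.11 against 6.76).

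By complex, the nuclear and mitochondrial parts differed in size, and for complexes III and V also in direction, with barcodes of up to 50% mitochondrial counts. For complex III the nuclear members had a log2 ratio of HFD to ND of -0.26, and mt-Cytb, the only mitochondrial subunit of that complex, stood at 0.18 (0.17 to 0.20) as a share of all counts, with 11832, 13424 and 10205 counts per 1000000 in ND, HFD and HFD_HDCA. For complex I the nuclear subunits stood at -0.27 and the 7 mitochondrial ones at -0.02 (-0.03 to -0.01). For complex IV the values were -0.23 and -0.08 (-0.09 to -0.07), and for complex V -0.16 and 0.04 (0.03 to 0.06). Between HFD_HDCA and HFD the nuclear parts of complexes I, III, IV and V were above 0 and the mitochondrial parts below it, at -0.33, -0.40, -0.25 and -0.30. These values moved with the limit. At the 20% limit the mitochondrial parts stood at -0.08 for complex I, 0.09 for complex III, -0.13 for complex IV and -0.03 for complex V for HFD to ND, so that only mt-Cytb was above 0. With no limit all 4 were below 0, at -0.29, -0.06, -0.34 and -0.22. For HFD_HDCA to HFD they were -0.19, -0.23, -0.13 and -0.15 at the 20% limit, and -0.05, -0.14, 0.02 (0.01 to 0.03) and -0.03 with no limit. The denominators differ, since nuclear genes were scaled to nuclear counts and mitochondrial genes to all counts.

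Within the mitochondrial mRNA pool the shares of single genes differed between libraries by up to 1.74 percentage points. mt-Co1, the catalytic subunit of complex IV, took 20.9% of the counts of the 13 genes in ND, 19.2% in HFD and 19.7% in HFD_HDCA. mt-Nd1, a core membrane subunit of complex I, took 5.78% (5.72 to 5.83%), 4.66% (4.60 to 4.71%) and 5.63% (5.58 to 5.69%), so HFD was low and the others were close. mt-Co2, which receives electrons from cytochrome c, took 8.98%, 8.08% and 9.20%. mt-Cytb was the reverse, with 8.60%, 9.86% and 9.23%. mt-Nd3 took 2.31%, 2.74% and 2.54%, and mt-Nd4l 3.57%, 4.21% and 4.18%. At the 20% limit mt-Nd1 took 5.85%, 4.87% and 5.77%, and in the barcodes over 50% it took 5.10%, 4.21% and 4.80%.

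These shares were ordered along the genome in the HFD library. All of the first 4 genes in the order given above, mt-Nd1 to mt-Co2, had a lower share in HFD than in ND, with log2 ratios of -0.31, -0.01, -0.13 and -0.15. The interval of mt-Nd2 included 0 (-0.03 to 0.01). Of the other 8, 7 had a higher share, led by mt-Nd3 at 0.25, mt-Nd4l at 0.24 and mt-Cytb at 0.20, and mt-Nd4 stood at -0.01. The division after mt-Co2 was not fixed beforehand and lies where the sign first changes. These counts therefore describe the order and do not test it. Spearman's rho of the log2 ratio with the gene's start was 0.65 and Pearson's r 0.73 over the 12 genes, which come from the same pair of libraries and the same long transcript and whose shares are tied by their sum. At the 20% limit rho was 0.61 and r 0.64. In the barcodes over 50%, rho was 0.78 and r 0.81. These are other barcodes of the same libraries and not a replicate. In those barcodes 5 of the other 8 were above 0, and the interval of mt-Co2 included 0 (-0.04 to 0.02). Between HFD_HDCA and HFD, which share that library, rho was -0.64 and r -0.68. Between HFD_HDCA and ND, rho was 0.21 and r 0.22.

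**Figure D4:**
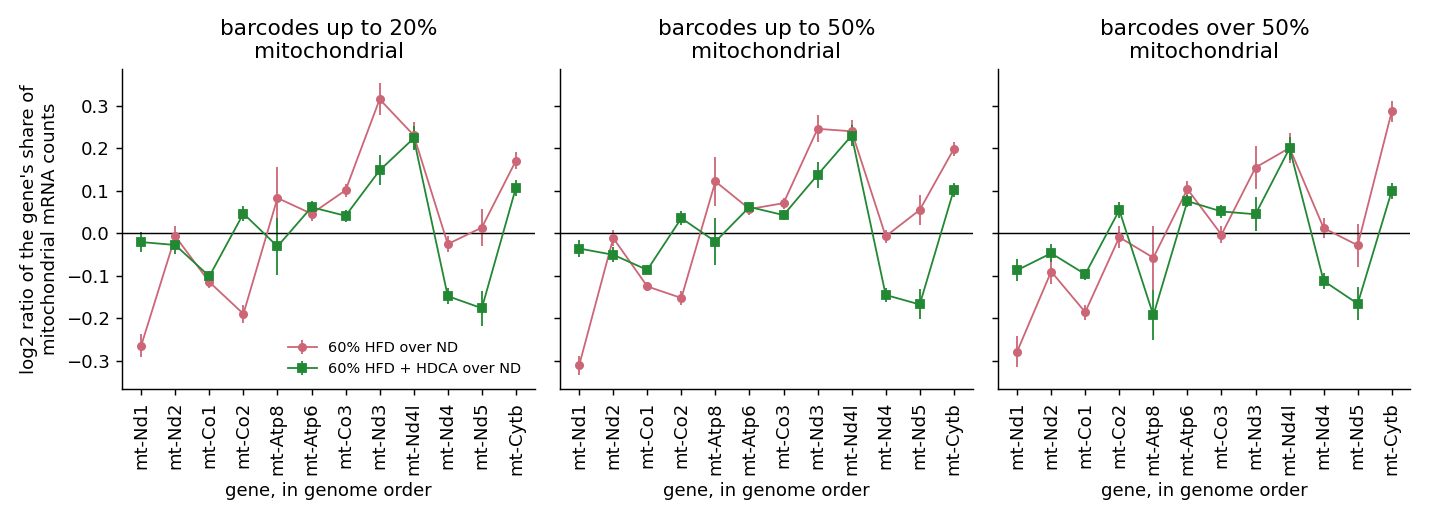
Log2 ratio of each gene's share of mitochondrial mRNA counts against ND, for HFD (circles) and HFD_HDCA (squares), with genes in the order in which they lie on the mitochondrial genome and bars for 95% counting intervals, in barcodes up to 20%, up to 50% and over 50% mitochondrial. In HFD the first 4 genes lie below 0 in each panel, though the interval of mt-Nd2 includes 0 in the first 2 and that of mt-Co2 in the last, and mt-Nd3, mt-Nd4l and mt-Cytb above 0.

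The pairs that share an mRNA were counted very unequally. mt-Atp8 took 0.744%, 0.809% and 0.733% of the pool against 14.7%, 15.3% and 15.3% for mt-Atp6, whose coding sequence holds the 3′ part of the same molecule. mt-Nd4l took 3.57% in ND against 10.1% for mt-Nd4, and their log2 ratios of HFD to ND were 0.24 and -0.01. The counts of such a pair are assigned by the deposited matrices, and how shared bases were handled is not given in the sources used here. mt-Nd6, from the other strand, took 0.393%, 0.454% and 0.415%. It overlaps mt-Nd5 on the opposite strand, and whether the counting used strand is not given either, so its values are uncertain.

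Up to a mitochondrial share of 50%, nuclear OXPHOS levels were lower in barcodes with a higher share within every library. At a share of 0 to 10% the members took 44032, 36422 and 40587 CPM in ND, HFD and HFD_HDCA. At 10 to 20% they took 38228, 33005 and 36290 CPM, at 20 to 30% 34448, 31024 and 31133 CPM, and at 30 to 50% 26982, 27491 and 26349 CPM. Past the limit they took 26031, 25516 and 28850 CPM at 50 to 70%, where HFD_HDCA was above its value at 30 to 50%, and 23630, 22817 and 26016 CPM at 70 to 90%. The log2 ratio of the 30 to 50% bin to the 0 to 10% bin was -0.71 (-0.75 to -0.66), -0.41 (-0.45 to -0.36) and -0.62 (-0.67 to -0.57). The direction was shared by 85, 75 and 82 of the 91 members in ND, HFD and HFD_HDCA. Among the 78 members with at least 1000 counts the median ratio was -0.72, -0.35 and -0.57, with 74, 70 and 71 below 0. Among all 1955 genes with as many counts it was -0.06, -0.06 and -0.10, with 53.8%, 54.6% and 56.1% below 0. Over all 10833 measured genes, many of which have few counts in the smaller bin, 45.3%, 39.0% and 38.6% were below 0.

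**Figure D5:**
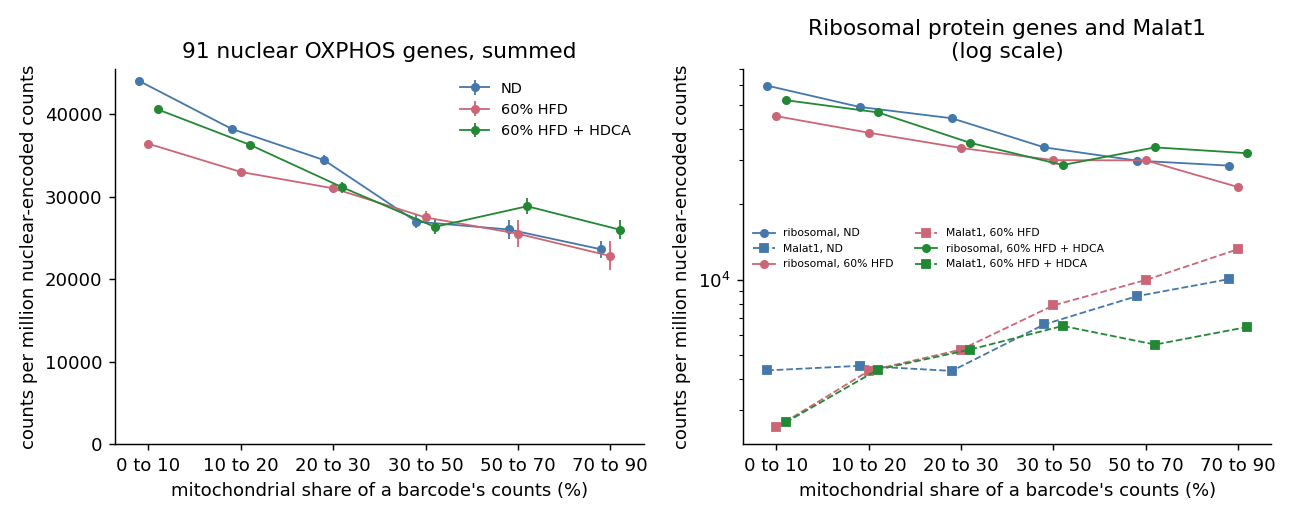
Left, summed level of the 91 nuclear OXPHOS genes by the mitochondrial share of barcodes, with 95% counting intervals. Right, summed ribosomal protein genes (circles) and Malat1 (squares) on a log scale, in the same bins. OXPHOS levels start at 44032, 36422 and 40587 CPM in ND, HFD and HFD_HDCA and come together between 26349 and 27491 CPM at 30 to 50%.

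The difference between libraries also varied with that share. The log2 ratio of HFD to ND was -0.27 (-0.29 to -0.26) at 0 to 10%, -0.21 at 10 to 20%, -0.15 (-0.19 to -0.11) at 20 to 30% and 0.03 (-0.03 to 0.09) at 30 to 50%. In barcodes over the limit it was -0.03 (-0.14 to 0.08) at 50 to 70% and -0.05 (-0.18 to 0.08) at 70 to 90%. HFD_HDCA to HFD ran from 0.16 at 0 to 10% and 0.14 at 10 to 20% to 0.01 (-0.04 to 0.05) at 20 to 30% and -0.06 (-0.13 to 0.00) at 30 to 50%, and was 0.18 (0.07 to 0.28) at 50 to 70%. The bins at 0 to 10% held 1202, 1081 and 1886 barcodes and those at 30 to 50% held 216, 314 and 160.

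Other transcripts differed between the bins too, and their part was not tested. Ribosomal protein genes took 59822, 45133 and 52313 CPM in ND, HFD and HFD_HDCA at 0 to 10% and 33850, 30077 and 28768 CPM at 30 to 50%. Malat1, a long noncoding RNA kept in the nucleus, took 4325, 2562 and 2678 CPM at 0 to 10% and 6611, 7881 and 6520 CPM at 30 to 50%. Hepatocyte markers took 99745, 94547 and 108650 CPM at the low end and 109318, 86074 and 116769 CPM at the high end. Median depth was 767, 950 and 944.5 counts in the first bin and 864.5, 571 and 947 in the last.

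Within the complexes the decline with mitochondrial share was alike in sign. In ND the log2 ratio of the 30 to 50% bin to the 0 to 10% bin was -0.72 for complex I, -0.47 (-0.77 to -0.19) for complex II, -0.64 for complex III, -0.78 (-0.88 to -0.69) for complex IV and -0.68 for complex V. In HFD it was -0.32, -0.35, -0.39, -0.46 and -0.46, and in HFD_HDCA -0.60, -0.53, -0.50, -0.66 and -0.68. Complex IV or complex V had the steepest decline in each library, and HFD had the shallowest values throughout.

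Along the liver lobule, barcodes were placed by markers of the periportal and pericentral zones, using those with at least 10 such counts and splitting each library into 3 about equal parts. Pericentral hepatocytes lie by the central vein, where oxygen is lowest. Nuclear OXPHOS levels were 37247 CPM periportally and 44578 pericentrally in ND, 31868 and 36410 in HFD, and 36531 and 39121 in HFD_HDCA. The middle part took 40326, 35317 and 40514 CPM in ND, HFD and HFD_HDCA, and in HFD_HDCA it was the highest part. The log2 ratio of pericentral to periportal was 0.26 (0.24 to 0.28), 0.19 (0.17 to 0.21) and 0.10 (0.08 to 0.11). Of the 91 members 22, 29 and 43 were below 0, with medians of 0.25, 0.15 and 0.01, so in HFD_HDCA the members were almost evenly divided. The same counts were not made over all measured genes, so these are not read as particular to the members. The parts were divided within each library and did not hold the same zone in all of them. The periportal part had 2653, 2315 and 825.0 CPM of the periportal gene Cyp2f2 and 26.9, 240.7 and 577.2 CPM of the pericentral gene Cyp2e1 in ND, HFD and HFD_HDCA. The 3 ratios are therefore not compared with each other. The mitochondrial share went the other way, from 15.3% to 11.3% in ND, 14.3% to 10.8% in HFD and 12.9% to 9.0% in HFD_HDCA. The periportal part was also deeper, with median depths of 3521 against 1279, 2744 against 1566 and 3636.5 against 1479 counts. The parts of depth and of mitochondrial share in the zonal difference were not tested.

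Genes that serve the chain without being members were taken from lists and described by counts. Over all measured genes 60.3% were below 0 for HFD to ND, with a median of -0.12, which is the background for each list here. Of 21 carrier and coenzyme Q genes, 12 were below 0 for HFD to ND, with a median of -0.03. Cytochrome c (Cycs) had 304.6, 281.4 and 287.1 CPM in ND, HFD and HFD_HDCA. Among genes of coenzyme Q, Coq10b, a binding protein, had 33.5, 203.5 and 163.8 CPM (log2 ratio of HFD to ND 2.60, 2.35 to 2.87), while Coq8a, a kinase-like protein of coenzyme Q synthesis, had 203.5, 76.0 and 73.2 CPM (-1.42, -1.62 to -1.23). Both kept these sides in HFD_HDCA against ND, at 2.29 and -1.48. Of 18 assembly factors of complexes III and IV, 13 were below 0 with a median of -0.28, and the copper chaperone Sco2 had 46.8, 25.4 and 19.2 CPM.

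Regulators of mitochondrial transcription numbered 16 measured genes, of which 9 were below 0 for HFD to ND, with a median of -0.18. The background was 60.3% of all measured genes, with a median of -0.12. Nrf1, whose product recognises the letters shown in the promoters above, had 51 counts in ND, 11 in HFD and 48 in HFD_HDCA, or 11.9, 2.95 and 8.28 CPM, so HFD was the low library (log2 ratio of HFD to ND -1.97, -3.11 to -1.06). Ppargc1a, a coactivator of mitochondrial biogenesis, had 21.8, 38.3 and 31.2 CPM (0.81, 0.43 to 1.21), and Esrra 24.8, 14.2 and 18.5 CPM (-0.80, -1.31 to -0.32). For the ETS and YY1 cores, Gabpa had 43.7, 49.5 and 48.3 CPM (0.18, -0.12 to 0.48) and Yy1 78.6, 83.8 and 92.8 CPM (0.09, -0.13 to 0.32). Both intervals included 0. Tfam, which packages and transcribes the mitochondrial genome, had 40.0, 44.4 and 47.8 CPM, with an interval that included 0 (0.15, -0.16 to 0.47). Members with the NRF1 core in the promoter had a median log2 ratio of HFD to ND of -0.24, with 11 of 13 below 0, and the 63 without it -0.26, with 56 below 0. For the ETS core the medians with and without were -0.23 and -0.26, for YY1 -0.26 and -0.25, and for the oestrogen-related receptor core -0.28 and -0.25.

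Ribosomal genes, mitochondrial and cytoplasmic, lay on the same side of 0 as the members. Over all measured genes 60.3% were below 0 for HFD to ND (median -0.12) and 42.8% for HFD_HDCA to HFD (median 0.06). Of 78 mitochondrial ribosomal protein genes, whose products build the ribosome that translates the 13 mitochondrial mRNAs, 66 were below 0 for HFD to ND (median -0.21) and 19 for HFD_HDCA to HFD (median 0.15). Of 79 cytoplasmic ribosomal protein genes, 79 were below 0 for HFD to ND (median -0.34) and 5 for HFD_HDCA to HFD (median 0.26). The 13 genes of the tricarboxylic acid cycle, which supplies complexes I and II, had 5 below 0 and a median of 0.06 for HFD to ND. Idh3a, a subunit of the NAD-dependent isocitrate dehydrogenase, had 23.6, 37.8 and 41.9 CPM, and citrate synthase (Cs) 85.2, 63.7 and 65.4 CPM.

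Members are short transcripts, with a median annotated length of 931 bases against 2981 for all measured genes. Length was that of the longest protein-coding transcript annotated as principal, or of the longest where none was. Which form was expressed was not examined. Short genes outside the set also had medians below that of all genes for HFD to ND. Of 87 other genes of up to 600 bases 64.4% were below 0 (median -0.26), and of 18 members of that length 17 were (median -0.26). Between 600 and 1000 bases the medians were -0.23 for 462 other genes and -0.30 for 30 members. Between 1000 and 2000 bases they were -0.14 and -0.18, and between 2000 and 4000 bases -0.09 for 4141 other genes and 0.02 for 10 members. Over 4000 bases they were -0.08 for 3312 other genes and -0.40 for 3 members. These are Atp5g1, Ndufb2 and Sdhaf3, placed there by their longest annotated form. Over the 90 members with a length, Spearman's rho of length with the log2 ratio was 0.21 for HFD to ND and -0.39 for HFD_HDCA to HFD, both using the HFD library. The part of transcript length in the members' difference was not tested.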

How the data were processed

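Single-cell RNA libraries of primary hepatocytes, 1 per diet, were analysed. The deposited values were whole UMI counts per gene and barcode, made with Cell Ranger (version 5.0.0 per the file headers) on mm10 per the submitters' processing notes, and how barcodes were chosen is not given in the sources used here. Barcodes needed 200 genes and at most 50% (second limit 20%) mitochondrial counts, without clustering or doublet removal. Counts were summed per library, nuclear genes scaled per 1000000 nuclear-encoded counts and mitochondrial genes per all counts. Log2 ratios added 0.5 to each count, with exact conditional binomial 95% intervals, and levels had exact Poisson or binomial intervals, checked on simulated data. PCR was controlled by the UMIs, and intervals cover counting error only. Members and gene lists were chosen with earlier results of these data known. Named genes were the 6 highest and 6 lowest members per comparison (at least 20 CPM in a library), the most abundant of each complex, core subunits and isoform pairs, and any others were chosen after their values were seen. A gene that the rule names is not reported here. Genes and coordinates came from GENCODE M21. Alternatives were other limits, scalings, equal weighting, thinning to 500 counts and leaving out barcodes with at least 3 marker counts of other cells. Thinning used only barcodes with at least 500 counts, which left out 558 HFD barcodes and 0 in ND and HFD_HDCA. Python 3.11.15, numpy 2.4.6 and scipy 1.17.1 were used.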

Additional observations from a re-analysis of the deposited data

How the results depend on the processing

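For HFD to ND the nuclear sum (-0.21) stayed below 0 in every alternative run: -0.20 with no mitochondrial limit, -0.23 with median-of-ratios scaling, -0.27 when ribosomal and the 20 top genes were left out of the scaling, -0.20 with equal weight per barcode, -0.18 with thinned barcodes and -0.23 without barcodes with other cells' markers. For HFD_HDCA to HFD (0.16) it was 0.14 with at least 500 genes, 0.14 with median-of-ratios scaling, 0.19 without ribosomal and top genes, 0.23 with equal weight and 0.21 thinned. For HFD_HDCA to ND (-0.05) it was -0.067 at the 20% limit, -0.077 with 500 genes, -0.090 and -0.081 with the other scalings and -0.063 without marker barcodes, and turned to 0.030 with equal weight and 0.027 thinned. The mitochondrial to nuclear quotient for HFD to ND (0.20) was 0.13 at the 20% limit, 0.067 with 500 genes, 0.41 with equal weight, 0.30 thinned and 0.20 without marker barcodes, and turned to -0.15 with no limit. For HFD_HDCA to HFD (-0.50) these were -0.34 at the 20% limit, -0.19 with no limit, -0.32 with 500 genes, -0.90 with equal weight and -0.81 thinned, and for HFD_HDCA to ND (-0.31) -0.21, -0.33, -0.25, -0.49 and -0.52. The causes were not tested. Thinning gave 1 member (Ndufaf6) past 2-fold for HFD_HDCA to ND in place of 0. The count was 1 for the other comparisons in every alternative, but with equal weight the member for HFD_HDCA to HFD was Ndufaf5 in place of Cox7a1. Both rest on few counts. No paired analysis was possible because each group has 1 library.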
